A study of Mus musculus with 13 samples.

Results

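Deubiquitinases are enzymes that remove ubiquitin from proteins, and 62 genes named for these enzymes were followed in mouse glomeruli after injection of antibodies against THSD7A. The genes were taken by symbol: the ubiquitin-specific proteases (symbols starting with Usp and a digit), the ubiquitin C-terminal hydrolases (UCH; Uchl genes and *Bap1*), the ovarian tumor proteases (OTU; Otub and Otud genes) and the Josephin proteases *Josd1* and *Josd2*. Of 35967 gene symbols with a value, 74 matched. *Usp18*, which acts on the ubiquitin-like protein ISG15, and *Usp9y*, a Y-linked gene, were set aside by name. Another 10 genes had a TPM of at least 1 in fewer than 4 libraries, which left 62. TPM is a transcript level corrected for transcript length and rescaled to the same total in each library. Among the 10 genes below this limit, *Otud6a*, *Usp17lb*, *Usp17ld*, *Usp17le* and *Usp17le-ps* were listed at 0 in every library, and *Usp50* came nearest, with a TPM of at least 1 in 1 library. The members just inside were *Usp17la*, with 4 such libraries, and *Uchl4*, with 5. Of the 62 genes, 58 had a TPM of at least 1 in all 13 libraries. The symbol pattern also takes in *Usp6nl*, which encodes a GTPase-activating protein for Rab proteins, and *Usp39*, a splicing factor without protease activity.

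The glomeruli came from wildtype Balb/c mice given 2 mg of rabbit IgG intraperitoneally. Control mice received preimmune IgG (n = 5), and mice with membranous nephropathy (MN) received anti-THSD7A IgG and were killed at day 1 (day 1 MN, n = 4) or day 5 (day 5 MN, n = 4). Control mice of both days form 1 group, and the day of each is not given in the sources used here. The study's methods name only males for the MN model, and an age of 14 to 15 weeks where they describe its induction. THSD7A is a podocyte membrane protein and a target of autoantibodies in human MN, and passive transfer of rabbit antibodies models that binding without autoantibodies made by the mouse. Glomeruli were collected on magnetic beads, and each mouse gave 1 library. The deposited values were TPM, so read depth was unknown and no counting error could be given. In such bulk libraries, fewer cells of a type and less RNA per cell cannot be told apart.

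Ubiquitin is attached to lysines of proteins by a cascade of ligases, as a single unit or as a chain, and the linkage decides whether a protein is sent to the proteasome, to the lysosome, or to another partner. Deubiquitinases cut these bonds, recycle ubiquitin and trim its precursors. *Uchl1* encodes a small hydrolase that is abundant in neurons, and its protein has been described in podocytes and parietal epithelial cells of injured glomeruli.

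The 8 podocyte markers summed to between 7578 and 10222 TPM in control mice, to between 8385 and 10261 TPM in day 1 MN and to between 9139 and 9819 TPM in day 5 MN, and these ranges overlapped. Single podocyte markers moved in both directions. *Synpo*, which encodes synaptopodin, an actin-associated protein of foot processes, was at 1350 to 1552 TPM in control mice, 1074 to 1314 in day 1 MN and 915 to 1159 in day 5 MN (log2 fold change at day 5 -0.46, limma adjusted p = 0.00197). *Cdkn1c*, a cell cycle inhibitor, was called higher at day 5 (0.72, adjusted p = 7.1e-04). Of the nerve markers searched, 7 of 8 were below the limit for testing, and *Stmn2*, which made up nearly all of their sum, was at 28.2 to 48.4 TPM. Tubular marker sums in day 5 MN lay below those in day 1 MN, and both ranges overlapped the control range. Proliferation marker sums in day 5 MN lay above the control range. The 8 proximal tubule markers summed to between 2268 and 8226 TPM in control mice, with the highest value in control replicate 5, to between 3955 and 7201 TPM in day 1 MN and to between 2926 and 3547 TPM in day 5 MN. The 8 markers of the loop, distal tubule and collecting duct summed to between 259 and 525 TPM, 499 and 909 TPM and 350 and 482 TPM in the same order. The 8 proliferation markers summed to between 116 and 145 TPM in control mice and to between 260 and 328 TPM in day 5 MN. Leukocyte markers summed to at most 21.7 TPM in any library.

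Near-identical copies could share reads, since the authors' program assigns each read through short words of the transcript sequence. *Usp46* and its closest relative *Usp12* encode the same type of enzyme and are both activated by the WD40 protein WDR48, and the stretch around the codon of the catalytic cysteine is shown for both because the difference between these paralogs bears on the main result. Capitals mark the bases that differ, 13 of 60, in reading frame bases 115 to 174 of *Usp46* and 127 to 186 of *Usp12*.

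Usp46: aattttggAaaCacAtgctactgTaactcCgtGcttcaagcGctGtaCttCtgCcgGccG

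Usp12: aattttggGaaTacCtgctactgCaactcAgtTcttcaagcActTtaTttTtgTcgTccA

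Over their whole reading frames both genes were 77.2% identical, and no word of 31 bases occurred in transcripts of both. *Uchl3* and *Uchl4* were much closer, and the same stretch is shown because *Uchl4* stands at the filter limit. Capitals mark 9 bases found only in *Uchl4* and 1 substitution.

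Uchl3: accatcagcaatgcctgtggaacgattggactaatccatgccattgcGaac

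Uchl4: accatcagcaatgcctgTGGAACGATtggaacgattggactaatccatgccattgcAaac

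Their reading frames were 97.4% identical over the aligned bases, and 35.8% of the words of *Uchl4* occurred in *Uchl3*, so that the low level of *Uchl4* is uncertain. *Uchl1* shared no word with *Uchl3*, but 25.5% of its words occurred in transcripts of other genes, 15.5% in its antisense transcript *Uchl1os*, which was not analysed here. Over all 62 genes the median share was 4.38%, and *Usp49* had the highest, 55.3%, most of it with the overlapping readthrough gene *Gm20517*.

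In control glomeruli the 62 genes spanned 2 orders of magnitude, and most were well expressed. The mean TPM in control mice ran from 0.929 for *Usp17la* to 129 for *Usp19*, with a median of 25.2, and 52 genes reached at least 10. *Usp19*, which has a form anchored in the endoplasmic reticulum, came first at 129 ± 7.88 TPM (SD, n = 5). *Usp7*, which acts on MDM2 and p53, followed at 118 ± 10.2 TPM, and *Otud5*, a regulator of innate immune signalling, at 97.7 ± 12.3 TPM. *Usp9x*, which acts on endosomal and junctional proteins, had 90.8 ± 7.06 TPM and *Usp4* 76.9 ± 5.86 TPM. The ranges of neighbours in this order overlapped. At the low end, *Usp17la*, *Usp29*, *Uchl4*, *Otud7a*, *Usp43* and *Usp27x* had means under 3 TPM. The spread between control mice was small for most genes, with a median coefficient of variation of 8.76%. It was widest for *Otud7a*, at 76.3%, a gene that was also listed at 0 in 1 day 5 MN library.

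**Figure D1:**
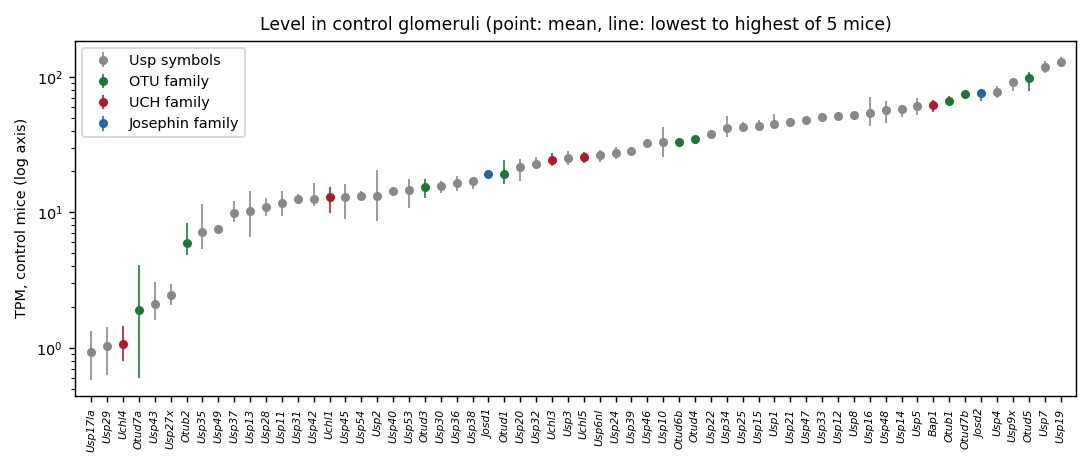
Mean TPM of the 62 genes in control mice (points, n = 5, vertical log axis) with lines from the lowest to the highest mouse, ordered by mean and coloured by enzyme family. Levels ran from 0.929 TPM for Usp17la to 129 TPM for Usp19, and Uchl1 lay in the lower part of the order.

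The first comparison asked which of these transcripts had already changed at day 1, the early stage of the model. None of the 62 passed the threshold, which was an adjusted p under 0.05 in limma together with an absolute log2 fold change above 0.5 on the scale of scaled TPM plus 0.5. Over all 14322 genes tested, 0.0908% passed, so that the count of 0 is near the background. With the same thresholds, the authors' own test on read counts called more genes than this fit, at day 1 and at day 5. At an unadjusted p under 0.05, *Usp46*, *Usp21*, *Usp9x* and *Otub1* passed, 4 of 62, against 12.6% of all genes. The first 3 of these had lower estimates in day 1 MN and *Otub1* a higher one. The ranges of control and day 1 MN were separate for *Usp46* and *Usp21* on the lower side, 2 of 62 against 3.32% of all genes, and for none on the higher side, against 0.908%. The median log2 fold change was -0.04, with 39 genes below 0 and 23 above, beside -0.00 over all genes, and the median size was 0.10 beside 0.11. All 62 lay within 0.5 of 0. At this day all 8 proximal tubule markers had estimates above 0, with a median of 0.71, and so had all 8 markers of the loop, distal tubule and collecting duct, with a median of 0.62. None of either list passed. A fit with the mean of the proximal tubule markers as a covariate also called 0 of the 62 at day 1. That fit called 0 of all genes tested as well, so its count cannot show whether tubular content bears on the 62.

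At day 5, the late stage of the model, the only member that passed was *Usp46*, which was lower in MN mice. That is 1 of 62, against 3.21% of all genes in either direction and 0.789% on the lower side. By the adjusted p alone *Otud7b* and *Usp21* were also lower, which makes 3 of 62 or 4.84%, against 1.99% of all genes. *Uchl1* had the highest estimate of all 62 but missed the adjusted threshold. The median log2 fold change was again -0.04, with 39 genes below 0 and 23 above, and the median size was 0.11 beside 0.13 over all genes. Of the 62 genes, 96.8% lay within 0.5 of 0, compared with 91.1% of all genes. At neither day were the genes compared for size matched for TPM level.

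**Figure D2:**
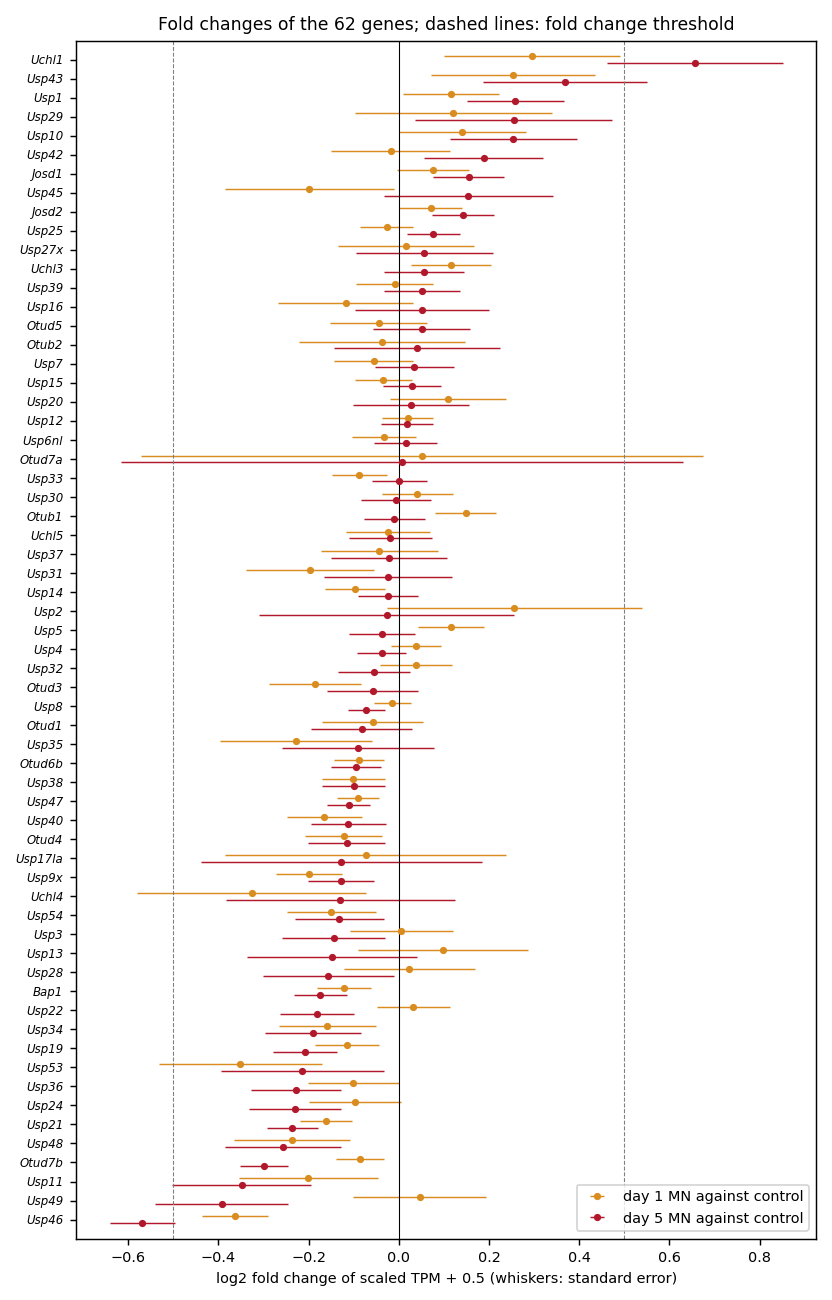
Log2 fold changes of the 62 genes against control mice (points; whiskers, standard error) at day 1 (orange) and day 5 (red), ordered by the day 5 value, with dashed lines at the threshold of 0.5 on either side. At day 5 only Uchl1 (0.66) and Usp46 (-0.57) lie beyond these lines, and at day 1 no gene does; both days are compared with the same control mice.

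**Figure D3:**
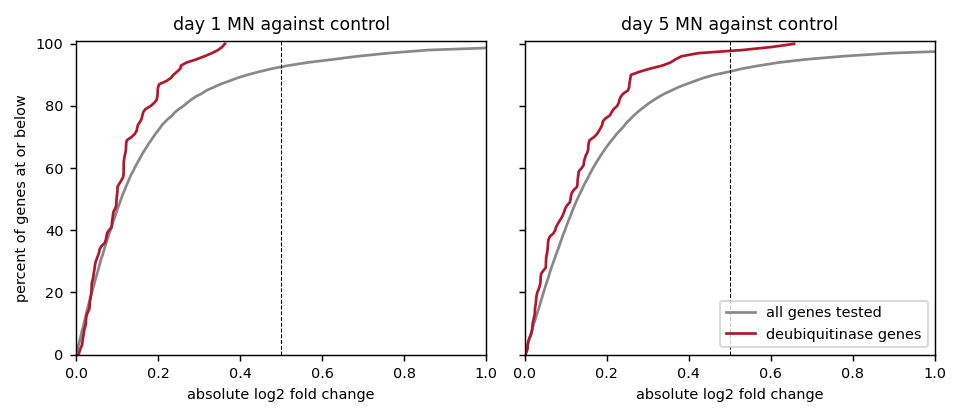
Share of genes (vertical axis, percent) at or below each absolute log2 fold change (horizontal axis) at day 1 (left) and day 5 (right), for the 62 genes (red) and all 14322 tested genes (grey), with a dashed line at 0.5. The red curves rise to 100% sooner than the grey ones, with a median size at day 5 of 0.11 for the 62 genes and 0.13 for all genes. The sets were not matched for TPM level.

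*Usp46* encodes a protease that, with WDR48 and WDR20, removes ubiquitin from membrane receptors such as glutamate receptors. The gene (GRCm39, chr5:74133639-74229118, minus strand) was at 30.0, 34.5, 34.0, 31.1 and 32.4 TPM in control mice. Day 1 MN mice had 23.0, 21.9, 28.4 and 24.2 TPM, and day 5 MN mice 19.7, 19.9, 22.6 and 22.5 TPM. Every MN value lay below every control value at both days. The log2 fold change was -0.57 at day 5 (SE 0.07, limma adjusted p = 4.2e-04) and -0.36 at day 1 (SE 0.07, adjusted p = 0.102). The difference between the days was -0.21 (SE 0.08, adjusted p = 0.207). The day 5 value stayed between -0.60 and -0.55 when any 1 library was left out, and its adjusted p stayed at or under 0.00263. With the mean of the podocyte markers as a covariate it was -0.57 (adjusted p = 6.7e-04), while the part of single markers such as *Synpo* and *Cdkn1c* was not tested. At day 1 the adjusted p fell to 0.0433 without control replicate 5 and to 0.0307 without day 1 MN replicate 3, with estimates that stayed within 0.5 of 0.

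*Usp12*, whose sequence stands beside that of *Usp46* above, was at 50.6 to 53.6 TPM in control mice, at 46.5 to 54.9 in day 1 MN and at 48.1 to 54.5 in day 5 MN. These ranges overlapped, and the log2 fold change was 0.02 at each day (SE 0.06). The activators of both enzymes did not pass either. *Wdr48* had a log2 fold change at day 5 of -0.11 (SE 0.07) and *Wdr20* of -0.06 (SE 0.15).

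*Otud7b*, also called Cezanne, is an OTU protease that also acts on TRAF3 in noncanonical NF-kB signalling. The gene had 74.2, 72.3, 78.1, 76.7 and 69.7 TPM in control mice, 67.9, 63.5, 65.3 and 74.3 TPM in day 1 MN, and 54.8, 58.3, 62.7 and 59.4 TPM in day 5 MN. The day 5 values lay below all control values and also below all day 1 values, while day 1 and control overlapped. Its log2 fold change at day 5 was -0.30 (SE 0.05, limma adjusted p = 0.00409), which is under the fold threshold. The estimate was -0.09 at day 1 (adjusted p = 0.529), and day 5 was -0.21 below day 1 on the log2 scale (SE 0.06, adjusted p = 0.0700). The adjusted p at day 5 stayed under 0.05 in each fit with 1 library left out.

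*Usp21* encodes a protease for histone H2A and for RIPK1. It was at 46.3, 49.6, 47.3, 45.5 and 44.0 TPM in control mice, at 40.3, 40.3, 42.9 and 37.6 in day 1 MN, and at 34.7, 36.0, 43.5 and 40.4 in day 5 MN. All MN values were below the lowest control value. The log2 fold change was -0.16 at day 1 (SE 0.06, limma adjusted p = 0.301) and -0.24 at day 5 (SE 0.06, adjusted p = 0.0253). The day 5 adjusted p rose to between 0.0502 and 0.0911 without control replicate 1, 2 or 3 or day 5 MN replicate 1 or 2.

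*Uchl1* (GRCm39, chr5:66832748-66845009, plus strand) was at 15.5, 13.1, 12.7, 13.7 and 9.86 TPM in control mice. Day 1 MN mice had 16.8, 17.2, 17.8 and 10.8 TPM. Day 5 MN mice had 26.2, 22.0, 13.9 and 19.9 TPM. At day 1, 3 of 4 values were above the highest control value and replicate 4 was in the lower control range. At day 5, again 3 of 4 values exceeded all controls, and replicate 3 was within the control range. The log2 fold change was 0.29 at day 1 (SE 0.19, limma adjusted p = 0.556) and 0.66 at day 5 (SE 0.19, adjusted p = 0.0664). An exact two-sided permutation test of *Uchl1* alone gave p = 0.143 at day 1 and p = 0.0159 at day 5, where the smallest p that 126 splits allow is 0.00794. These values are not adjusted for *Uchl1* having been chosen with earlier results known, nor for its place as the highest of 62 estimates. The difference between the days was 0.36 (SE 0.21, adjusted p = 0.431).

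The call for *Uchl1* at day 5 turned on single libraries. Without day 5 MN replicate 3 the log2 fold change was 0.85 with an adjusted p of 0.0139 in limma, and without day 1 MN replicate 4, which enters only the shared estimate of spread, it was 0.66 with an adjusted p of 0.0429. Without day 5 MN replicate 1 it was 0.51 with an adjusted p of 0.192. Of the 6 parietal epithelial markers, 5 had estimates above 0 at day 5, with a median of 0.19. *Cldn1* was called higher (log2 fold change 1.08, adjusted p = 0.00360) and *Akap12* was higher by adjusted p alone (0.29, adjusted p = 0.0404), while *Wnt16* had 0.95 (adjusted p = 0.0606), *Pax2* and *Cp* 0.09 each and *Ncam1* -0.44 (adjusted p = 0.145). Of the 8 nerve markers only *Stmn2* was above the limit for testing, so it cannot stand for nerve content, whose part was not tested. *Stmn2* ranged from 46.3 to 48.4 TPM at day 5, above its control range of 28.2 to 45.6. Its log2 fold change was 0.39 and did not pass by adjusted p, and 5.07% of all genes had separate ranges on the higher side. The sum of the parietal markers was 82.3 to 110 TPM in control mice and 102 to 127 TPM in day 5 MN. These ranges overlapped. Most of the sum came from *Cp* and *Akap12*, at control means of 51.6 and 34.0 TPM. *Pax2* and *Wnt16* had control means of 0.761 and 0.854 TPM. The part of parietal epithelial cells in the level of *Uchl1* was not tested.

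**Figure D4:**
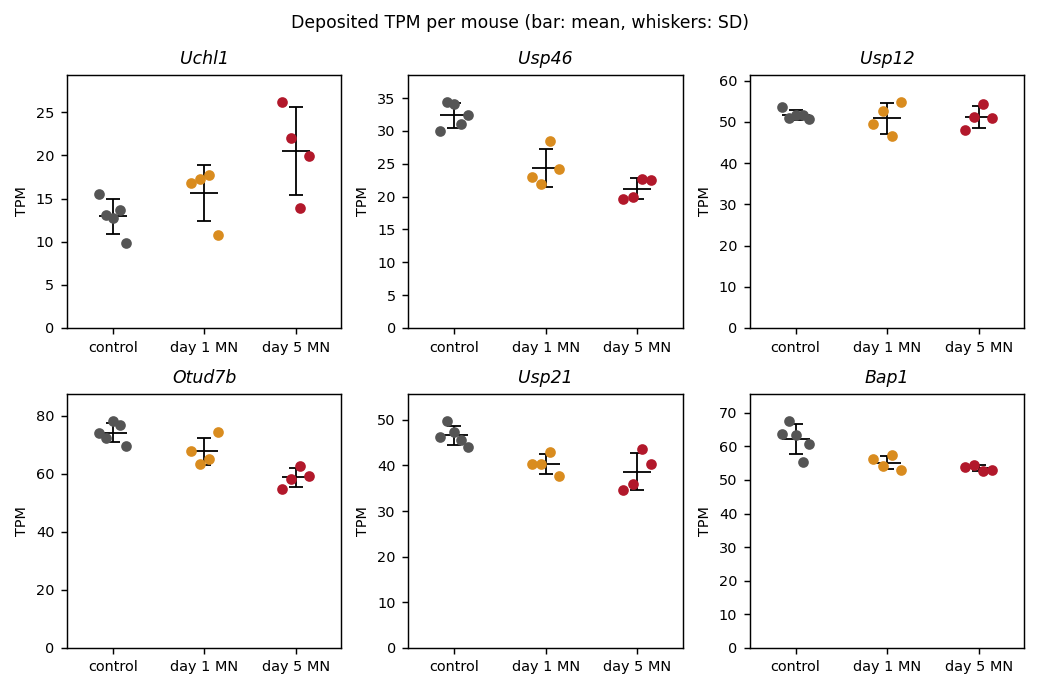
Deposited TPM in each mouse (points) of Uchl1, Usp46, Usp12, Otud7b, Usp21 and Bap1, with the mean (bar) and SD (whiskers) of control mice (n = 5), day 1 MN (n = 4) and day 5 MN (n = 4); each vertical axis starts at 0. Usp46 and Usp21 show MN values below all control values at both days, Usp12 is level, and Uchl1 has 1 low mouse in each MN group.

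**Figure D5:**
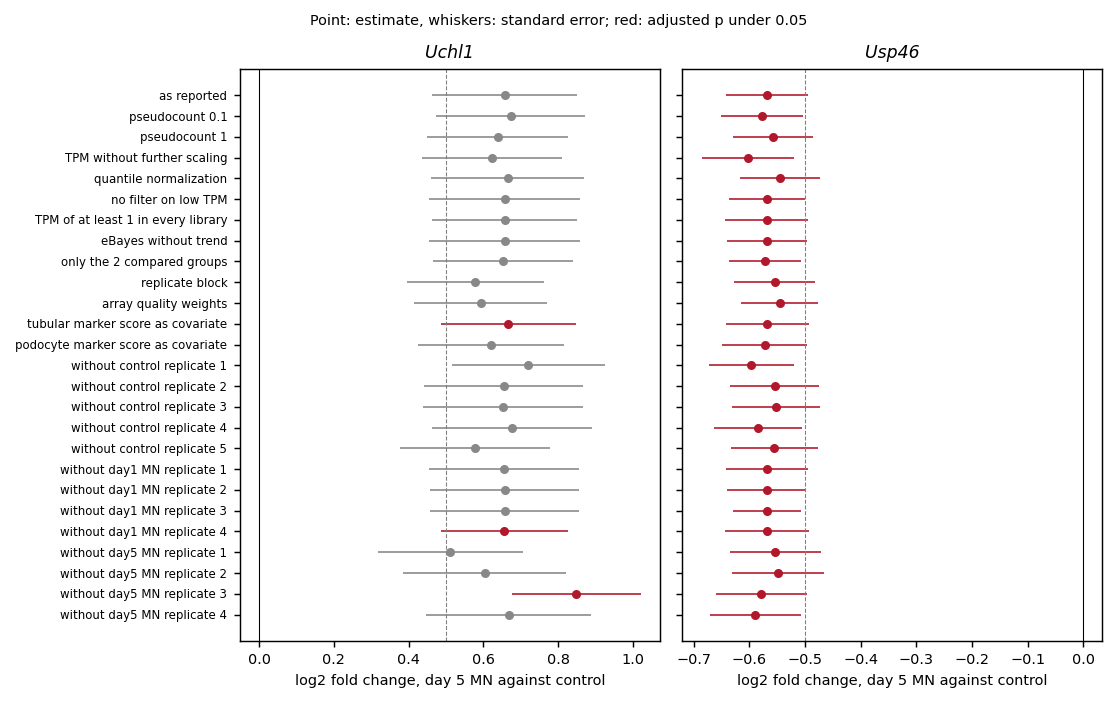
Log2 fold change at day 5 against control (horizontal axis; points with standard errors) of Uchl1 (left) and Usp46 (right) under each processing setting and with each library left out, in red where the adjusted p was under 0.05; the dashed line marks the fold threshold of 0.5. Usp46 stays between -0.60 and -0.55, and Uchl1 passes under 3 settings.

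The genes whose values ran most like those of *Uchl1* over the 13 libraries, by Pearson correlation of the log2 values, were *Anxa1* (0.911), *Tgfb1i1* (0.905), *Tceal9* (0.904), *2510009E07Rik* (0.904) and *Tmed10* (0.900). These correlations describe libraries that share the group difference and the scaling. *Anxa1*, which encodes the phospholipid-binding protein annexin A1, was at 351 ± 23.4 TPM in control mice (SD, n = 5) and at 446 ± 44.7 TPM in day 5 MN (n = 4).

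None of the other UCH genes passed at either day. *Uchl3*, which also processes NEDD8, had log2 fold changes of 0.12 at day 1 and 0.06 at day 5 (SE 0.09 for both). *Uchl5*, a proteasome-bound hydrolase that docks on ADRM1, had -0.02 at both days (SE 0.09 for both). *Uchl4*, at 0.393 to 1.45 TPM over all libraries, had -0.33 and -0.13 (SE 0.25 for both). *Bap1*, the nuclear protease that removes ubiquitin from histone H2A, was at 55.3 to 67.4 TPM in control mice and at 52.7 to 54.6 TPM in day 5 MN. Those ranges did not overlap, and the log2 fold change of *Bap1* at day 5 was -0.17 (SE 0.06, limma adjusted p = 0.109). It passed on adjusted p without control replicate 4 (adjusted p = 0.0349) and with TPM as deposited (adjusted p = 0.0492).

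Of the 9 OTU genes, *Otud7b* was lower by adjusted p and the other 8 did not pass at either day. *Otub1*, which blocks a ubiquitin-conjugating enzyme, had 0.15 at day 1 (SE 0.07, limma adjusted p = 0.398) and -0.01 at day 5; 32.4% of its words occurred in the overlapping gene *Macrod1*. *Otud5* had -0.04 and 0.05 (SE 0.11 for both). Both Josephin genes had positive estimates at day 5, 0.15 for *Josd1* (SE 0.08) and 0.14 for *Josd2* (SE 0.07), and neither passed.

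Among the Usp genes grouped by role, 6 act in DNA repair, replication and the cell cycle, and none passed at day 5, while 7 of 8 proliferation markers were called higher then (median of the 8, 2.33 on the log2 scale). *Usp1*, which removes ubiquitin from PCNA and FANCD2, was at 41.4 to 53.2 TPM in control mice and at 45.9 to 68.2 TPM in day 5 MN. Its highest value was that of day 5 MN replicate 3, and its log2 fold change at day 5 was 0.26 (SE 0.11, limma adjusted p = 0.193). *Usp1* and *Uchl1* were the 2 members with higher estimates at an unadjusted p under 0.05, against 11.0% of all genes on the higher side. *Usp7* had 0.03 (SE 0.09) and *Usp29*, at about 1 TPM, had 0.25 (SE 0.22).

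Of the 6 Usp genes that act on histones, 4 had estimates below 0 at day 5, and *Usp21* was lower by adjusted p. *Usp49*, which acts on histone H2B, was at 6.98 to 8.04 TPM in control mice, 5.99 to 10.5 in day 1 MN and 4.14 to 6.94 in day 5 MN. All day 5 values were below the control range, with a log2 fold change of -0.39 (SE 0.15, limma adjusted p = 0.151). Of its words, 44.7% are also those of *Gm20517*, so the level of *Usp49* itself is uncertain. *Usp22*, the protease of the SAGA complex, had -0.18 at day 5 (SE 0.08).

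The 9 genes acting on endosomes and membrane receptors held *Usp46* and no other member that passed. *Usp9x* had -0.20 at day 1 (SE 0.07, limma adjusted p = 0.309) and -0.13 at day 5 (SE 0.07). *Usp8*, which acts on receptors at the endosome, had -0.07 at day 5 (SE 0.04). *Usp10*, a partner of G3BP1, had 0.14 and 0.25 (SE 0.14 for both), and *Usp2*, whose control values spread from 8.55 to 20.5 TPM, had 0.26 and -0.03 (SE 0.28 for both). None of the 5 Usp genes listed with TGF-beta and NF-kB signalling passed. *Usp11* had -0.20 at day 1 and -0.35 at day 5 (SE 0.15 for both), with day 5 values of 8.10 to 9.32 TPM just below the control range of 9.37 to 14.5. *Usp4* had 0.04 and -0.04 (SE 0.06 for both).

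The 3 junction and cytoskeleton genes did not pass. *Usp53*, a tight junction protein, had -0.35 at day 1 (SE 0.18) and -0.21 at day 5, and *Usp43* had 0.25 and 0.37 (SE 0.18 for both). The mitochondrial protease gene *Usp30* had -0.01 at day 5 (SE 0.08) and *Usp35* -0.09 (SE 0.17). The proteasome-bound *Usp14* and *Usp5*, which disassembles free ubiquitin chains, had -0.02 and -0.04 at day 5 (SE 0.07 for both). Among the remaining 13 Usp genes, 10 had estimates below 0 at day 5, with a median of -0.11, and none passed. *Usp19* was lowest in this set by unadjusted p, with 99.3 to 118 TPM at day 5 against 120 to 140 TPM in control mice and a log2 fold change of -0.21 (SE 0.07, limma adjusted p = 0.11). *Usp48* had -0.24 at day 1 and -0.26 at day 5 (SE 0.13 for both).

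Over all 62 genes at day 5, the ranges of MN and control mice were separate on the lower side for *Bap1*, *Otud6b*, *Otud7b*, *Usp11*, *Usp19*, *Usp21*, *Usp46*, *Usp47* and *Usp49*. That is 9 of 62 or 14.5%, against 5.71% of all genes, and on the higher side it was 0 of 62 against 5.07%. At an unadjusted p under 0.05, 11 of 62 or 17.7% were lower, against 9.06% of all genes. These ranges are of TPM as deposited. The summed TPM of the 62 genes as deposited was 2096 ± 61.3 in control mice (SD, n = 5), 1966 ± 66.1 in day 1 MN (n = 4) and 1978 ± 99.8 in day 5 MN (n = 4). The highest day 5 sum, 2079, lay within the control range of 2002 to 2159. After the scaling used in the fits, the sums were 2040 to 2088 in control mice, 1958 to 2052 in day 1 MN and 1938 to 2030 in day 5 MN, so that all day 5 sums were below the control range. No test was made of these sums or of the set of genes.

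Day 5 and day 1 MN mice were also compared directly. None of the 62 genes passed in limma, against 1.81% of all genes. At an unadjusted p under 0.05, *Otub1*, *Otud7b*, *Usp22*, *Usp46* and *Usp49* had lower estimates at day 5 than at day 1, 5 of 62 or 8.06%, against 15.5% of all genes in either direction. The largest estimates were those of *Usp49* (-0.44, SE 0.16, limma adjusted p = 0.182) and *Uchl1* (0.36).

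Other deubiquitinase genes outside the symbol rule, 20 of 22 of them tested, held 1 that passed at day 5, on the higher side, where 2.42% of all genes passed. *Tnfaip3*, which encodes A20, an inhibitor of NF-kB signalling, was at 4.97 to 8.88 TPM in control mice, 9.68 to 16.2 in day 1 MN and 11.7 to 13.4 in day 5 MN. All MN values were above the control range, and the day 5 range lay within that of day 1. Its log2 fold change was 0.79 at day 1 (SE 0.16, limma adjusted p = 0.109) and 0.81 at day 5 (SE 0.16, adjusted p = 0.00867). The authors, who tested read counts, list *Tnfaip3* among the genes changed at both days. By limma adjusted p alone, *Mindy4* was higher at day 5 (0.44, adjusted p = 0.0459). *Zranb1*, another OTU protease, was lower (-0.24, adjusted p = 0.0331). None of the 4 ubiquitin precursor genes passed.

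Of 25 listed partners and substrates, 2 passed at day 5, both higher, against the same 2.42% of all genes. *Uhrf1*, a ubiquitin ligase of replicating chromatin that is a partner of USP7, was at 1.30 to 3.67 TPM in control mice and at 7.78 to 12.2 TPM at day 5 (log2 fold change 2.04, limma adjusted p = 7.95e-05). *Fancd2*, a substrate of USP1, was at 0.368 to 0.921 and at 1.26 to 3.26 TPM (log2 fold change 1.16, adjusted p = 0.0246). *Pcna* and *Dnmt1* were higher by adjusted p alone, with 0.47 and 0.37. *Pcna* also belongs to the proliferation markers, and the part of dividing cells in the level of these 4 genes was not tested. At day 1 none of the 25 passed.

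Promoter sequences are shown for *Usp46*, the 1 member that passed, and for *Uchl1*, which had the highest estimate. They run from 250 bases before to 50 bases after the RefSeq start (GRCm38.p6), and 50 of the 62 genes had an entry, in 54 windows. Capitals mark a match to an SP1 motif, and the *Uchl1* window had no match to any motif searched. The *Usp46* window, chr5:74068362-74068661 on the minus strand, had 78.0% G and C and 38 CpG dinucleotides. The *Uchl1* window, chr5:66675871-66676170 on the plus strand, had 50.7% and 9.

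Usp46: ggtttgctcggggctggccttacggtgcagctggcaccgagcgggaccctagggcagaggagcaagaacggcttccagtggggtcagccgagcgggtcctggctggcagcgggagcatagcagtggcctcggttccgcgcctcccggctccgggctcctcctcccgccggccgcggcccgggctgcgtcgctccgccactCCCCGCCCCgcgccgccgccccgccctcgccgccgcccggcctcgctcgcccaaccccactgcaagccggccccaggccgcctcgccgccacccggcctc

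Uchl1: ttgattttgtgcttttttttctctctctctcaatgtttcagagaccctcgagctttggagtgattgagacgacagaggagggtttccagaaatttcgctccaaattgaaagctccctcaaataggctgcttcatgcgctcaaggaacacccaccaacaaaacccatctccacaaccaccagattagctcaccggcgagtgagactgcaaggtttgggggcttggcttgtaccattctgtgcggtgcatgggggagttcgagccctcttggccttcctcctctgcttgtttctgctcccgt

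The median of the 54 windows was 64.7% G and C and 27.5 CpG dinucleotides, beside 52.7% and 7 over 32851 mouse windows. The SP1 letters GGGGCGGGG, searched like the others on both strands, were in 29.6% of the 54 windows and in 11.4% of all. The EGR letters GCGTGGGCG or GCGGGGGCG, which can overlap an SP1 match, were in 20.4% and 3.47%. The AP-1 letters TGACTCA were in 5.56% and 5.20%, and the E2F letters TTTCCCGC or TTTGGCGC in 1.85% and 1.56%. For CRE (TGACGTCA) the shares were 3.70% and 1.79%, and for ETS (ACCGGAAGT) 1.85% and 1.10%. The NRF1 motif was in 0 windows and 0.971% of all, and the TATA letters TATAAAA in 0 windows and 5.48% of all. These shares describe base composition as well as motifs.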

How the data were processed

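The authors trimmed the reads with Trimmomatic 0.39 after FastQC 0.11.9, quantified them with kallisto 0.46.2 against GRCm39, and deposited TPM per gene symbol and library. These values carry no read depth, and whether the library kit kept strand is not given in the sources used here. The authors' own tests used DESeq2 on counts, which were not used here.

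Groups came from the sample labels, 5 control, 4 day 1 and 4 day 5 mice. Libraries were scaled by median-of-ratios factors (0.955 to 1.04) from 15772 genes above 0 in each library, and log2 of the scaled TPM plus 0.5 was used. Fold changes on this scale understate those of genes with low TPM. Genes had to reach a TPM of 1 in 4 or more libraries. These 14322 genes entered 1 fit with a trended variance prior in limma 3.58.1 (R 4.3.3) over all 13 libraries, with Benjamini-Hochberg adjustment within each of 3 contrasts. A call needed an adjusted p under 0.05 together with a log2 fold change beyond 0.5 in either direction. The fit was tested on simulated data. Replicates are separate mice.

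The members and lists were chosen with earlier results of these data known. Named genes were members with an adjusted p under 0.05, UCH genes, the 5 highest and 5 lowest fold changes at each day, the 5 highest control levels, genes at the filter limit, called genes of the other lists and the 5 most correlated with *Uchl1*. Other members were named as examples of their role group, after their values were seen. Gene positions are from GENCODE vM39 (GRCm39), promoters from RefSeq (GRCm38.p6), and reading frames are the longest in the first-numbered transcript of each gene. Words of 31 bases were compared between all GENCODE transcripts of each gene and those of other genes. The authors quantified against a different annotation release, from Ensembl, so the shares in their reference can differ. Scripts used Python 3.11.15, Biopython 1.88 and matplotlib 3.10.9. Alternatives are listed with their effect in the closing section.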

Additional observations from a re-analysis of the deposited data

Results flagged for a closer look

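Of 75 groups of 4 or 5 mice tested over 25 named genes, 6 held 1 library far from the others by Dixon's 95% criterion, where chance flags about 1 in 20, or 3.75. *Uchl1* in day 1 MN replicate 4 was at 10.8 TPM, against 16.8 to 17.8 TPM in the other 3 mice. *Usp4* in day 5 MN replicate 2 was at 67.1 TPM, against 74.5 to 75.2. *Usp7* in day 1 MN replicate 1 was at 119 TPM, against 107 to 108. *Otub1* in control replicate 1 was at 71.6 TPM, against 63.5 to 65.2. Control replicate 2 stood apart for *Usp35*, at 11.5 TPM against 5.35 to 6.81, and for *Usp9x*, at 78.4 TPM against 91.9 to 95.3.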

How the results depend on the processing

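The alternatives were other pseudocounts (0.1 and 1), quantile normalization or no scaling at all, a filter at a TPM of 1 in all libraries or none, a variance prior without trend, array quality weights, a fit of only the 2 groups compared, a replicate block, calls by adjusted p without a fold limit, the mean of the proximal tubule markers as a covariate, each library left out in turn and, chosen after seeing the data, the mean of the podocyte markers as a covariate. No member was called at day 1, or between day 5 and day 1, under any of them. At day 5, *Usp46* was called under every one, and the count of members called was 1 to 2 with a library left out, 2 with the tubular covariate and 3 by adjusted p alone. The second gene was *Uchl1*, which passed without day 5 MN replicate 3, without day 1 MN replicate 4 and with the tubular covariate (0.67, limma adjusted p = 0.0453). Its log2 fold change at day 5 ranged from 0.51 to 0.85 with a library left out, with adjusted p from 0.0139 to 0.192, and from 0.58 to 0.67 otherwise. No sign of a called value was reversed.

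Same-numbered libraries did not deviate together over all genes: in 12 pairs the correlation of deviations ran from -0.0563 to 0.0913. This check showed no pairing by number, and it cannot exclude one that touches only some genes. Only the control group has a replicate 5, so the replicate block gives that library a term of its own. Its estimates therefore compare replicates 1 to 4 only. With the block, *Uchl1* at day 5 was 0.58 (limma adjusted p = 0.128) and *Usp46* was -0.55 (adjusted p = 0.00457). *Usp21* lost its adjusted p (0.0686). The members called stayed at 0 at day 1, 1 at day 5 and 0 between the days. Over all genes the block, which sets control replicate 5 apart, moved the day 1 count from 13 to 149. That count was 218 with control replicate 5 left out and 0 with the tubular covariate. The block and this leave-out both take control replicate 5 out of the group comparison, so they are not separate checks. Between the days, the count ran from 153 to 437 over all alternatives beside 259. The cause of these shifts was not tested. TPM without counts limit the genes under about 1 TPM most, such as *Usp17la* and *Uchl4*.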
